A study of Mus musculus with 2 samples.

Results

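The miR-15, miR-16 and miR-195 family comprised 5 of the 1973 miRNA genes counted in limbs of mouse embryos at embryonic day 13.5. The members were chosen by name and not by any measured value, though with earlier results of these data known. They are the genes annotated Mir15a, Mir16-1, Mir15b, Mir16-2 and Mir195a. Mir322, which carries the same seed on the X chromosome, was left out of the family by that rule. The libraries were made from total RNA of whole limbs of B6NCrl embryos, with males and females mixed and a short RNA size range. The group held 2 biological replicates, from separate tissue samples with the same donor label, and the series holds no second tissue, treatment or genotype. The values therefore describe levels within this tissue and the spread between these libraries, and ratios between genes are given with their SD and no test, as an exact two-sided test on 2 libraries reaches no p under 0.5.

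MicroRNAs are short RNAs cut from a hairpin in a longer transcript, and each hairpin can release an arm from its 5′ side (5p) and one from its 3′ side (3p). An arm loaded into an Argonaute protein pairs with messenger RNAs mainly through its seed, bases 2 to 8, and lowers their output. The miR-15 and miR-16 arms are known for targeting messenger RNAs of the G1-to-S transition, among them those of D-type cyclins, cyclin E1 and Cdk6, and that of the survival protein Bcl2. The Dleu2 locus is known for its deletion in human chronic lymphocytic leukemia, and miR-195 for restraining the division of mouse heart muscle cells around birth.

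The 5p arms are shown because the shared seed defines the family and because their similarity bears on the counting. The sequences are from RefSeq (GRCm38.p6), written 5′ to 3′ with the seed in capitals.
miR-15a-5p: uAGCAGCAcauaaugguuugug
miR-15b-5p: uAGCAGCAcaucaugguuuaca
miR-16-5p: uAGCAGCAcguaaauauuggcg
miR-195a-5p: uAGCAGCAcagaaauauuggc

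All 5 genes had mature sequences in the table, and the 5p arms came to 4 distinct sequences, because Mir16-1 and Mir16-2 give the same 5p arm. Against miR-16-5p, with positions counted from 1 at the 5′ end, each of the other 5p arms was identical over the first 9 bases. The closest to miR-16-5p was miR-195a-5p, with 2 differences over 21 bases, G10A and U11G. For miR-15a-5p the differences numbered 6 of 22 bases, and for miR-15b-5p 8 of 22. With each other, miR-15a-5p and miR-15b-5p shared their first 11 bases and differed at 4 of 22. The 3p arms did not share a seed: the 5 genes had 5 different 3p seeds.

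The Mir16-1 and Mir16-2 hairpins are shown because a stretch common to both limits what can be counted. It is 23 bases long, covers the whole 5p arm and 1 base after it, and is in capitals.
Mir16-1: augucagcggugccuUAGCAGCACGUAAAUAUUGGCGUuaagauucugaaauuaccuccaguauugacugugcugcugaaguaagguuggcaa
Mir16-2: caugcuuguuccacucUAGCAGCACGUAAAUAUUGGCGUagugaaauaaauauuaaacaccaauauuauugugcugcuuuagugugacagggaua

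A read that lies within these 23 bases matches both hairpins, and in the layout of the deposited tables a read with several matches enters no gene. Multimapping reads of every origin came to 30.8% of replicate 1 and 29.5% of replicate 2, and how many of them were miR-16-5p cannot be read from the tables. The counts of Mir16-1 and Mir16-2 are therefore uncertain, as they hold only reads that matched 1 of the hairpins, such as their unlike 3p arms or 5p reads that reach past the stretch. No other arm of the family was found whole in another hairpin of the RefSeq table. Among the hairpins compared, Mir195a shared at most 16 bases with another, that of Mir195b, and Mir15b at most 10. The Mir15a hairpin was not among them, and the miR-15a-5p and miR-15b-5p arms alone share their first 11 bases. The tables give 1 count per hairpin, so 5p and 3p reads are not told apart for any member.

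At the Dleu2 locus, Mir15a and Mir16-1 were the members with the most counts. Dleu2 is a long noncoding RNA gene and the host of both hairpins. Mir15a (ENSMUSG00000093007) lies on the minus strand of chromosome 14 at 61632027 to 61632110 (mm10), in an intron of all 8 annotated Dleu2 transcripts that span it. Its sense counts were 16628 in replicate 1 and 15030 in replicate 2, or 2805 and 2503 counts per 1000000 sense counts in miRNA genes (CPM), a mean of 2654 ± 213 CPM (SD, n = 2). In whole limbs, fewer cells of a type and less RNA per cell cannot be told apart in such a level. Mir16-1 (ENSMUSG00000092995) lies 54 bases downstream, at 61631880 to 61631972, in an intron of 8 Dleu2 transcripts and overlapping an exon of 1 other. It had 9869 and 9309 counts, or 1665 and 1551 CPM, a mean of 1608 ± 80.9 CPM (SD, n = 2). Both libraries of Mir15a lay above both libraries of Mir16-1. The log2 ratio of Mir15a over Mir16-1 was 0.75 in replicate 1 and 0.69 in replicate 2, a mean of 0.72 ± 0.04 (SD, n = 2), or 1.65-fold. Per base of annotated hairpin, 84 bases for Mir15a and 93 for Mir16-1, the ratio was 1.83-fold. This is a ratio of counted reads, and the uncounted miR-16-5p reads have no part in it.

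At the Smc4 locus, both members had fewer counts than their relatives at Dleu2, and Mir15b again had more than its Mir16 neighbour. Smc4 encodes a core subunit of condensin, the complex that compacts mitotic chromosomes. Mir15b (ENSMUSG00000065580) lies on the plus strand of chromosome 3 at 69009772 to 69009835, in an intron of all 5 annotated Smc4 transcripts that span it. It had 4840 and 4922 counts, or 817 and 820 CPM in replicates 1 and 2, a mean of 818 ± 2.3 CPM (SD, n = 2), and its replicates lay closest together of the 5 members. Mir16-2 (ENSMUSG00000065606) follows after 66 bases, at 69009902 to 69009996, also in an intron of all 5 transcripts. Its counts were 1831 and 1317, or 309 and 219 CPM, a mean of 264 ± 63.3 CPM (SD, n = 2). In counted reads this was the lowest level and the widest relative spread of the family. The log2 ratio of Mir15b over Mir16-2 was 1.40 in replicate 1 and 1.90 in replicate 2, a mean of 1.65 ± 0.35 (SD, n = 2). Its size thus depended on the library, while its direction was the same in both. Per base of hairpin, 64 bases for Mir15b and 95 for Mir16-2, the mean was 2.22. As at Dleu2, the uncounted miR-16-5p reads have no part in these values.

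**Figure D1:**
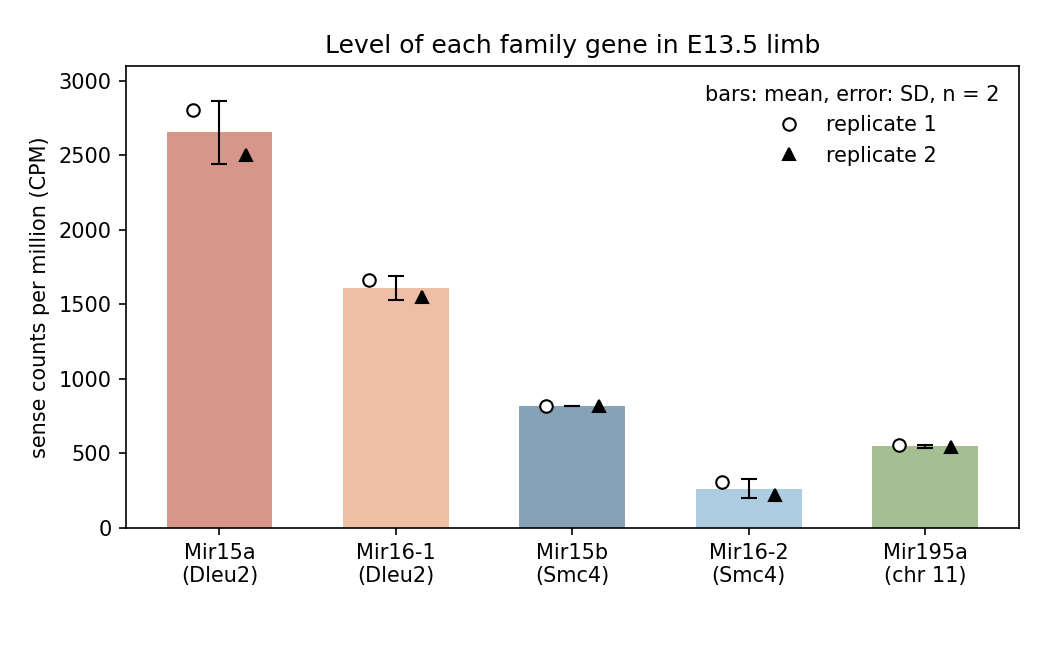
Level in CPM of each family gene, grouped by locus: bars are means over the 2 libraries, error bars the SD, circles replicate 1 and triangles replicate 2. Mir15a is highest at 2805 and 2503 CPM and Mir16-2 lowest at 309 and 219 CPM, with the libraries of Mir15b almost level at 817 and 820 CPM. The Mir16 genes lack reads of the stretch common to both hairpins.

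Across the loci, the Smc4 pair held 1125 and 1039 CPM in replicates 1 and 2, against 4470 and 4054 CPM for the Dleu2 pair. The log2 ratio of the Smc4 pair over the Dleu2 pair was -1.99 and -1.96, a mean of -1.98 ± 0.02 (SD, n = 2), so the Smc4 pair was 3.94-fold lower. The distance was smaller between the Mir15 genes, which have distinct 5p arms, than between the Mir16 genes. Mir15a was 3.24-fold above Mir15b (2.47-fold per base of hairpin), with log2 ratios of 1.78 and 1.61 in replicates 1 and 2. Mir16-1 was 6.17-fold above Mir16-2 (6.30-fold per base), with log2 ratios of 2.43 and 2.82. Mir15a made up 76.4% ± 1.5 (SD, n = 2) of the counts of both Mir15 genes, and Mir16-1 made up 86.0% ± 2.3 (SD, n = 2) of the counts of both Mir16 genes. Summed over loci, the Mir15 genes held 3473 ± 211 CPM and the Mir16 genes 1872 ± 144 CPM (SD, n = 2 each). Because reads of the common stretch are missing from the Mir16 genes, this sum does not show that mature miR-15 was more abundant than mature miR-16. For the same reason the ratios between the pairs and between the Mir16 genes are of counted reads only.

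Mir195a (ENSMUSG00000065411) lies on the plus strand of chromosome 11 at 70235042 to 70235135. No host gene on its strand spans it in GENCODE M21, other than miRNA genes. It had 3296 and 3246 counts, or 556 and 541 CPM in replicates 1 and 2, a mean of 548 ± 10.9 CPM (SD, n = 2). Mir15b was 1.49-fold above it (2.19-fold per base of hairpin) and Mir15a 4.83-fold (5.41-fold per base).

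The neighbour of Mir195a with the same seed is Mir497, whose hairpin ends 241 bases upstream, on the same strand, and which has no row of its own in the tables. The tables do hold Mir497b, which is annotated on the opposite strand and whose 125 bases cover all 84 bases of the Mir497 hairpin. Reads in the sense direction of Mir497b numbered 1 and 2, but reads antisense to it numbered 3412 and 3612 in replicates 1 and 2, or 576 and 602 CPM. These antisense reads lie on the strand of Mir497 and Mir195a, though the tables do not say whether they fall within the Mir497 hairpin. Their level was near that of Mir195a, with a log2 ratio of antisense reads over Mir497b to sense reads of Mir195a of 0.05 and 0.15. The arms are shown together because they share both the seed and the locus.
miR-497a-5p: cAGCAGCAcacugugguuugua
miR-195a-5p: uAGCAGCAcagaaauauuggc
None of the 5 members had an antisense read in either library.

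**Figure D2:**
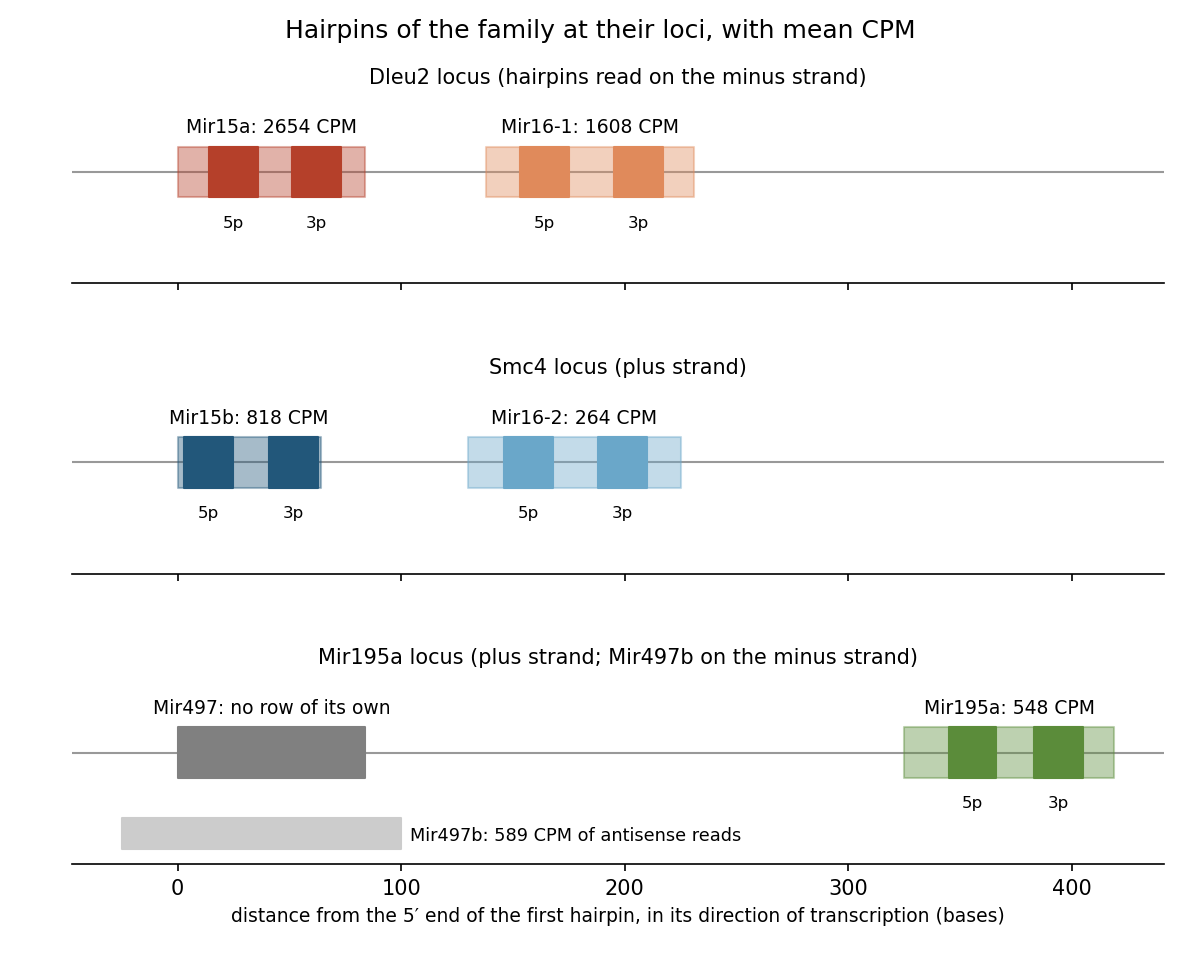
Maps to scale of the Dleu2, Smc4 and Mir195a loci, each from the 5′ end of its first hairpin in the direction of transcription, in bases; pale boxes are hairpins, dark boxes the 5p and 3p arms, and labels give mean CPM. Mir15a and Mir16-1 lie 54 bases apart and Mir15b and Mir16-2 lie 66 apart, while Mir195a follows Mir497 after 241 bases, with the Mir497b gene opposite Mir497.

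In order of mean CPM the members ran Mir15a, Mir16-1, Mir15b, Mir195a and Mir16-2. Both libraries of each lay above both libraries of the next in all 4 steps. Steps with Mir16-1 or Mir16-2 compare counted reads, without those of the common stretch, so they do not settle the order of abundance. In CPM the narrowest step was Mir15b over Mir195a at 1.49-fold and the widest Mir195a over Mir16-2 at 2.08-fold. Per 100 bases of hairpin the order was the same, with means of 3160, 1729, 1278, 583 and 278 CPM per 100 bases, but the steps ranked otherwise. On that scale Mir16-1 over Mir15b was the narrowest at 1.35-fold and Mir15b over Mir195a the widest at 2.19-fold. A mature miRNA read spans an arm and not the hairpin, so both scales are given. Mir15a alone held 45.0% ± 0.8 (SD, n = 2) of the counts of the family, and the Dleu2 pair 72.3% ± 0.5. The Smc4 pair held 18.4% ± 0.1 and Mir195a 9.32% ± 0.39. The whole family held 0.615% and 0.563% of the sense counts of replicates 1 and 2, a mean of 0.589% ± 0.037 (SD, n = 2). All of these shares leave out the reads of the stretch common to the Mir16 hairpins.

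All 5 members had at least 10 counts in each library, the minimum used to call a gene detected, against 18.9% of the 1973 genes. Among all genes Mir15a ranked 61st by mean CPM, Mir16-1 ranked 80th, Mir15b 104th, Mir195a 117th and Mir16-2 143rd, of 372 genes detected. The median member was at 818 CPM and the median detected gene at 106 CPM. Most places were not resolved from the next gene, and those of Mir16-1 and Mir16-2 leave out reads of the common stretch. Mir181a-1 and Mir361, next above and below Mir15a by mean at 2659 ± 11.6 and 2610 ± 4.4 CPM (SD, n = 2 each), lay between its libraries. Mir434 and Mir615, next to Mir16-1 at 1615 and 1573 CPM, overlapped it as well. So did Mir187 and Mir485, next to Mir16-2 at 269 and 259 CPM, Mir375 above Mir15b at 838 CPM, and Mir374b below Mir195a at 530 CPM. Only Mir96, below Mir15b at 801 CPM, and Mir210, above Mir195a at 595 CPM, were separated from the member in both libraries. These genes are named only for their level, over 2 samples of 1 tissue.

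**Figure D3:**
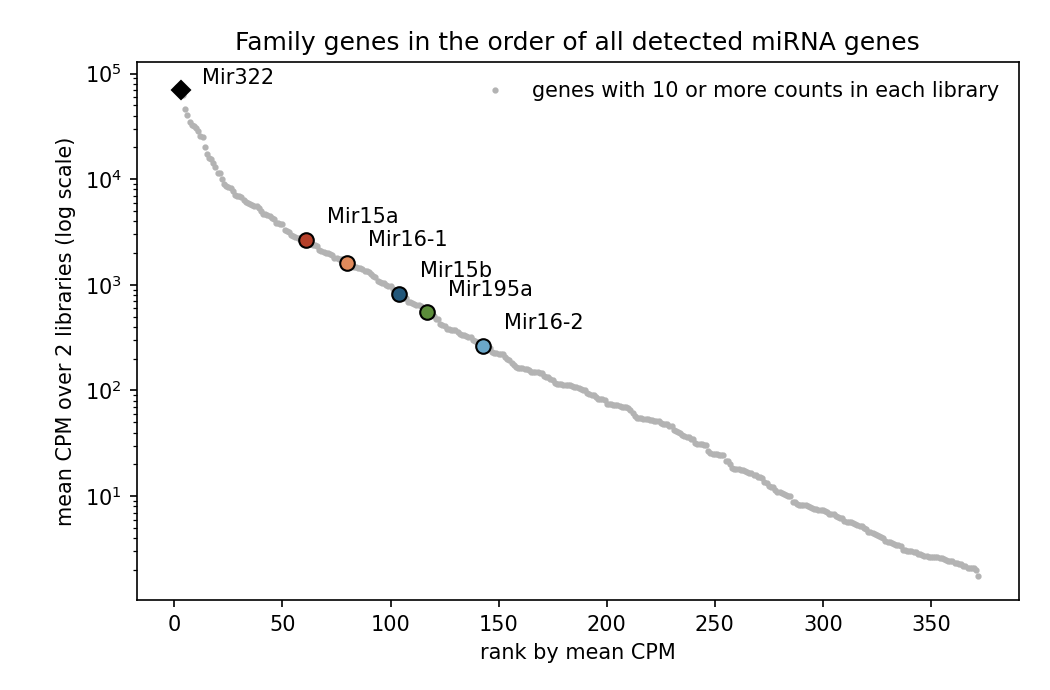
Mean CPM over the 2 libraries, on a log scale, against rank for the 372 genes detected, shown in grey, with the family in color and Mir322 as a black diamond. The family lies between rank 61, Mir15a, and rank 143, Mir16-2, and Mir322 at rank 3.

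Mir16-2 was the member whose libraries differed most. Its log2 ratio of replicate 2 over replicate 1 was -0.49, with an exact 95% interval of -0.60 to -0.39 that covers counting error only. Mir15a followed at -0.16 (-0.20 to -0.13) and Mir16-1 at -0.10 (-0.14 to -0.06). For Mir195a it was -0.04 (-0.11 to 0.03) and for Mir15b 0.01 (-0.05 to 0.06), both intervals including 0. Thus in counted reads Mir16-2 was lower in replicate 2 while Mir15b, from the same intron, was level. Reads of the stretch common to the Mir16 hairpins have no part in the ratios of Mir16-1 and Mir16-2. Of the 190 genes with a mean of at least 100 CPM, only 8 had a larger absolute log2 ratio than Mir16-2, and the median over these genes was 0.13. Of the 20 genes nearest to Mir16-2 in mean level, between 206 and 332 CPM, 2 had a larger one.

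In an exact binomial test of 529 genes between the libraries, with Benjamini-Hochberg adjustment over all of them, a call also needed an absolute log2 ratio of at least 1. By that rule 0 of the 5 members were called, against 3.59% of genes, and the count of members was also 0 with TMM or DESeq2 scaling. None of the 190 genes of at least 100 CPM could be called, as their highest absolute log2 ratio was 0.73. Of the 372 genes detected, 7 were called. By adjusted p alone, without the minimum ratio, 3 of the 5 members passed, against 34.2% of genes, and at an unadjusted exact p under 0.05 the members again numbered 3, against 39.7% of genes. These were Mir16-2 (exact binomial adjusted p = 1.51e-20), Mir15a (4.53e-23) and Mir16-1 (4.74e-06), each lower in replicate 2 in counted reads. Mir195a (0.466) and Mir15b (0.944) did not pass. This test sets 1 library against the other and leaves out the spread between replicates. For that spread edgeR gave a coefficient of variation of 0.111 over 372 genes, as a fraction and without counting error. The members' own coefficients of variation are a different measure, SD over mean of CPM with counting error included, in percent. They were 0.283% for Mir15b, 1.99% for Mir195a, 5.03% for Mir16-1, 8.04% for Mir15a and 24.0% for Mir16-2.

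**Figure D4:**
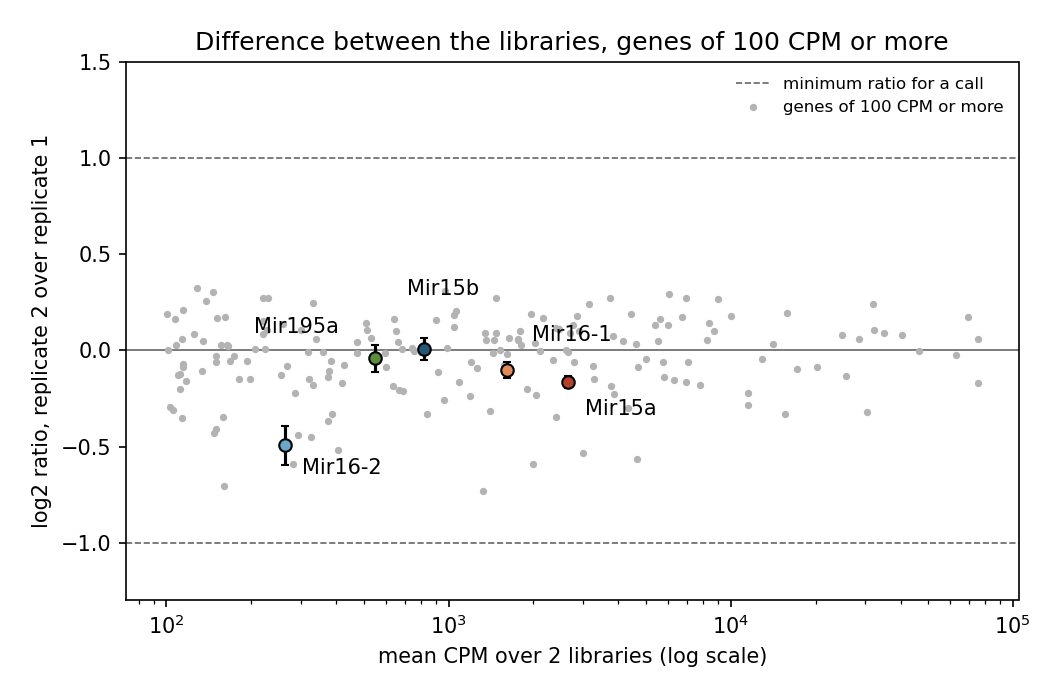
Log2 ratio of replicate 2 over replicate 1 against mean CPM, on a log scale, for the 190 genes of at least 100 CPM, in grey, with the family in color, bars as exact 95% counting intervals and dashed lines at the minimum ratio for a call. Mir16-2 lies at -0.49 and the other members between -0.16 and 0.01, all within the dashed lines. The Mir16 genes lack reads of the stretch common to both hairpins.

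Beyond the 5 members, the seed was carried by other genes at very different levels. RefSeq held 11 genes with a mature sequence whose bases 2 to 8 equal those of miR-16-5p, and 10 of them were counted. Together the 10 held 7.55% ± 0.56 (SD, n = 2) of sense counts. The 5 members made up 8.61% and 7.09% of that in replicates 1 and 2, against 91.4% and 92.9% for Mir322. The members' part leaves out reads of the stretch common to the Mir16 hairpins, so its size beside Mir322 is uncertain. Mir322, the mouse counterpart of human MIR424, stood at 65323 and 73813 CPM. That was 23.3-fold and 29.5-fold above Mir15a in the same libraries. Mir503, beside Mir322 and sharing bases 2 to 7 but not base 8, had a mean of 1955 ± 183 CPM (SD, n = 2), between Mir15a and Mir16-1. The arms are shown for comparison with those of the family.
miR-322-5p: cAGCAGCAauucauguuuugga
miR-503-5p: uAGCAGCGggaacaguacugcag

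The remaining seed carriers that were counted were at or near 0, while Mir497 was not counted. Mir195b, on chromosome 2, had 0 counts in replicate 1 and 1 count in replicate 2. Mir6342, Mir6353 and Mir6419 had 0 counts in both, which at a limit of 3 counts allows a level as high as 0.506 CPM (replicate 1) or 0.4997 CPM (replicate 2), for counting error only. Of these 4 the longest stretch shared with a member hairpin, Mir15a not compared, was 16 bases with Mir195a. It belonged to Mir195b, whose mature sequence is shown for that reason.
miR-195b: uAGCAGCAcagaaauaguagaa

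**Figure D5:**
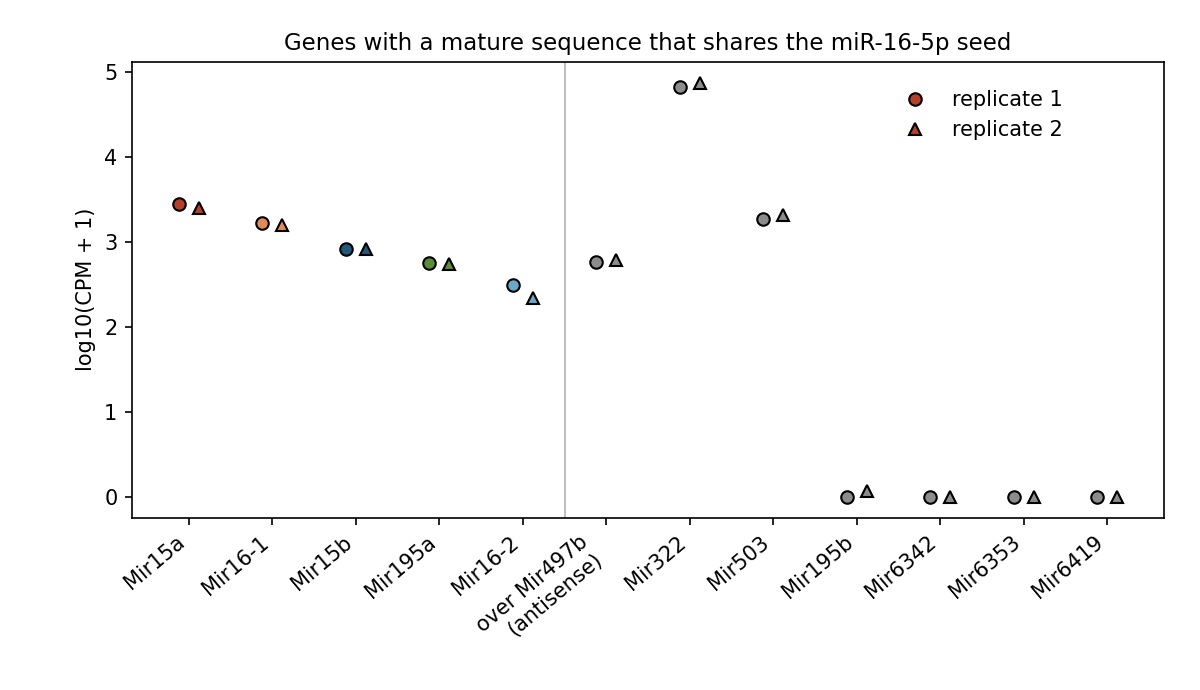
Level as log10(CPM + 1) in replicate 1 (circles) and replicate 2 (triangles) for the 5 members, left of the line, and, right of it, for antisense reads over Mir497b and the other genes with the seed, Mir503 sharing bases 2 to 7 only. Mir322 at 65323 and 73813 CPM lies above every member, and Mir195b, Mir6342, Mir6353 and Mir6419 lie at or near 0.

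Other miRNA genes known for acting on the cell cycle were listed beside the family: the miR-34 and miR-449 genes, which are tied to p53 and E2F, the miR-17 relatives, Mir221 and Mir222, which target the inhibitor p27, and Mir322 and Mir503. Of these 16 genes 14 were detected, against 18.9% of all genes. The list held 13.5% ± 0.1 (SD, n = 2) of sense counts, against 0.589% for the family. The share of the family leaves out reads of the stretch common to the Mir16 hairpins. The median gene of the family was higher, at 818 CPM, than the median of this list, at 208 CPM with a range from 0 to 69568 CPM. Its most abundant members were Mir322, Mir17 at 30533 ± 4775 CPM, Mir93 at 11541 ± 1263 CPM and Mir20a at 11502 ± 1592 CPM (SD, n = 2 each). Mir34c, at 637 ± 58.4 CPM, lay between Mir15b and Mir195a, and Mir449b and Mir449c had 0 counts in both libraries. No gene of the family or of this list was called between the libraries by the exact binomial test, against 3.59% of all genes and 7 of the 372 detected. Of the 14 list genes tested, 11 had an unadjusted exact p under 0.05, against 39.7% of all genes and 187 of the 372 detected. With more counts a smaller ratio gives such a p, and the list held genes as high as Mir322, of rank 3. These numbers therefore do not compare the spread of the list with that of other genes.

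Replicate 1 held 12407140 reads with 5927321 sense counts in miRNA genes, and replicate 2 held 12657170 reads with 6003632. All marker genes of the limb and its tissues were detected: limb-associated Mir196b, Mir10a and Mir10b held 9.52% of sense counts, cartilage Mir140 and Mir455 held 4.86%, vessel Mir126a and Mir143 held 2.70%, ectoderm Mir203 and Mir205 held 1.53%, and muscle Mir206 and Mir133b held 0.392%. Within the muscle pair the levels were unlike, with means of 3841 CPM for Mir206 and 75.3 CPM for Mir133b. The liver genes Mir122 and Mir192 were detected as well, at means of 73.7 and 83.9 CPM, near the level of Mir133b, and held 0.0158%. Detection alone therefore did not separate the markers of the limb from those of liver. Blood genes, 5 of 5 detected, held 0.0789% and 0.0675% of sense counts in replicates 1 and 2. In replicate 2, against replicate 1, Mir223 stood at 317 against 319 CPM, Mir155 at 225 against 339, Mir451a at 74.8 against 74.7, Mir144 at 53.1 against 48.8 and Mir150 at 5.66 against 7.76 CPM. The part of blood cells in the levels of the family was not tested.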

How the data were processed

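Small RNA of 2 replicate limb samples was sequenced. The authors deposited raw counts of reads per miRNA gene, 1 table per library, on mm10 with GENCODE M4, per the text files deposited beside the tables. Which aligner and counter made them is not given in the sources used here. No header names the columns; the layout is that of STAR gene counts, and either-strand counts equalled sense plus antisense in all 1973 genes. The leading lines without a gene entered neither sizes nor tests. In replicate 1 they held 17.2% of reads as unmapped, 30.8% as multimapping and 4.24% as outside any gene in the sense direction, and in replicate 2 18.6%, 29.5% and 4.48%. Sense counts were scaled to their total (CPM).

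Symbols, coordinates and hosts came from GENCODE M21 on the same build, matched without version for 1894 genes, and sequences from RefSeq; the hairpin of Mir15a is not used here. Libraries were compared with a two-sided exact binomial test over all genes with at least 5 counts in total, Benjamini-Hochberg adjusted at 0.05, adding 0.5 counts to ratios. The test was first checked on libraries simulated with counting error only and no minimum ratio. That check did not cover replicate spread. Replicate spread came from the common dispersion of edgeR 4.0.16 (TMM, intercept only), and DESeq2 1.42.0 gave alternative size factors. SciPy 1.17.1 was used for the rest. Alternatives covered denominator, strand, scaling, count minimum, length, added counts, family definition and each library alone. The members, lists and rules were chosen with earlier results of these data known. Named genes were the members, genes within 10 kb, genes with the seed, those next in rank and the 4 highest of the cell-cycle list; Mir34c, Mir449b and Mir449c were named after their values were seen, and the tissue markers were listed as a check of the label. Every interval or limit covers counting error only.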

Additional observations from a re-analysis of the deposited data

Results flagged for a closer look

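Reads antisense to Mir497b lie outside the sense counts used for the family, and were far above the limit that a count of 0 allows, at 576 CPM in replicate 1 and 602 CPM in replicate 2. They made up 1.76% and 1.78% of the 194161 and 202556 antisense reads in genes, and Mir497b ranked 8th by antisense reads in both libraries. Mir497 is annotated on the strand of these reads, and their source within the locus was not tested.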

How the results depend on the processing

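No paired analysis was possible because the series holds 1 group. The share held by the family was 0.589% of sense counts, 0.281% of all reads, 0.540% of reads mapped once and 7.55% with every gene carrying the seed; chosen after the data were seen, it was 0.402% without Mir16-1 and Mir16-2 and 0.648% with the antisense reads over Mir497b. Leaving out 1 library gave 0.563% to 0.615%. Per base of hairpin the log2 ratios were 0.87 for Mir15a over Mir16-1, 2.22 for Mir15b over Mir16-2 and -1.82 for the Smc4 over the Dleu2 pair; no alternative turned their direction. Leaving out 1 library gave 0.69 to 0.75, 1.40 to 1.90 and -1.99 to -1.96. Genes called between the libraries numbered 19, against 181 without the minimum ratio, 12 with at least 20 counts over both libraries and 14 with DESeq2 size factors; members called were 0 except 3 without the minimum ratio. Genes detected were 372, against 570 with at least 1 count in each library, and all 5 members were detected up to a minimum of 50 counts. Under TMM and DESeq2 scaling Mir16-2 kept a log2 ratio between libraries of -0.48. With 2 libraries an exact two-sided test of a ratio between genes cannot go below p = 0.5, so none was run, and reads shared by the Mir16 hairpins stay uncounted at any depth.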
